A study of Mus musculus with 16 samples.

Results

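Genes of the perineuronal net and the lectican matrix were taken by gene symbol from a table of spinal cord gene expression, and 10 of 10 listed genes (Acan, Bcan, Ncan, Vcan, Hapln1, Hapln2, Hapln4, Tnr, Tnc and Ptprz1) were among its 18167 genes. Messenger RNA from the spinal cords of 16 mice labelled male, 1 library per mouse, had been sequenced with a stranded kit on an Illumina NextSeq instrument. Mutant mice carried human profilin1 with the G118V change, which is linked to amyotrophic lateral sclerosis (on C57BL/6N, with the transgene Tg(Prnp-PFN1*G118V)838Kiaei/J). Wild-type mice carried unchanged human profilin1 (on C57BL/6N, with the transgene Tg(Prnp-PFN1)850Kiaei/J). Both transgenes were driven by the mouse prion protein (Prnp) promoter, so every group, controls included, expressed human profilin1 beside the mouse protein, and mice without a transgene were not analysed here. The wild-type young (WY) group held 3 mice and the mutant young (MY) group 3 mice, all 50 days old. The wild-type old (WO) group held 5 mice, 3 of them 190 days and 2 of them 294 days old. The mutant old (MO) group held 5 mice at end stage, when a mouse laid on its side no longer righted itself, aged 198, 190, 245, 224 and 175 days. Library batch 1 held all young mice and old mice 1 to 3 of each genotype, and batch 2 held old mice 4 and 5 of each genotype. Among the wild-type mice, batch 2 and the age of 294 days therefore cannot be told apart. A difference within batch 2 sets 2 WO mice of 294 days against 2 younger MO mice, of 224 and 175 days. Genotype and age cannot be told apart in it.

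Levels are given as log2(1 + FPKM), where FPKM counts fragments scaled to transcript length and to the library's mapped fragments, after the authors' adjustment for batch. A difference on this scale understates the change of a gene with low FPKM. The number of reads behind a gene is not given, and errors come from the spread over mice. Pairs of groups were compared with limma over all 18167 genes. A gene is said to have risen or fallen at a Benjamini-Hochberg false discovery rate (FDR) at or below 0.05, and to be differentially expressed if its fold change was also at least 1.5. WO vs. MO asks for the difference at the end stage, MY vs. MO for the course in mutant mice, WY vs. WO for the course in wild-type mice, and WY vs. MY for the difference before symptoms. WO vs. MO and MY vs. MO share the MO mice, WY vs. WO shares the WO mice with the first and the WY mice with WY vs. MY, and each comparison's values are given side by side.

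Perineuronal nets are dense coats of extracellular matrix around the cell bodies and proximal dendrites of certain neurons, among them spinal motor neurons and fast-spiking interneurons. Lecticans, which are chondroitin sulfate proteoglycans, bind the polysaccharide hyaluronan at their N-terminal end, and link proteins stabilise this binding. Lecticans bind tenascin-R at their C-terminal end, and this ternary mesh restricts synaptic change in the mature nervous system. Reactive glia in the injured spinal cord are known to lay down chondroitin sulfate proteoglycans and tenascin-C.

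Certain libraries stood apart before any comparison was made. WY1 lay outside the range of the other 5 young mice for 8 of the 10 matrix genes, 6 of them below and 2 above. By the same measure WY2 lay outside for 6 of the 10, 1 below and 5 above, and each other young mouse for 0 to 3. Over all genes WY1 lay outside the range of the other young mice for 60.3% of them, against 19.6% to 35.7% for each other young mouse. MO5 was labelled male but read 3.21 for the female-specific transcript Xist, where the other 15 mice read -0.36 to 0.37. The Y-linked gene Ddx3y read 1.95 in MO5 and 4.06 to 4.74 in the others. Some results below are also given without WY1 or without MO5. The closest pair of libraries, MY2 and MY3, differed by a median of 0.0558 on the log2 scale, against 0.0580 and 0.0602 for the other MY pairs, so no library was treated as a duplicate.

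The 10 genes spanned a wide range of abundance. FPKM is given here for each group's mean log2 level. In WO mice Bcan stood first, at 93.3 to 130 over the 5 mice, and Hapln2 next at a group level of 104, and their mice overlapped. Hapln4 followed at 66.2 and Ptprz1 at 20.8, each without overlap with its neighbours. Ncan at 8.78, Tnr at 7.57 and Vcan at 6.33 each overlapped the next gene in WO mice, which was Hapln1 at 5.34 for Vcan. Acan at 3.92 and Tnc at 0.774 were lowest, and neither overlapped the gene before it. In MO mice the order differed in places, with Bcan (87.1) and Hapln2 (86.4) overlapping, Ncan (8.60) and Vcan (8.59) overlapping, Tnr (5.21) and Hapln1 (4.13) overlapping, and Acan (2.25) overlapping Tnc (1.80). In MY mice no neighbours overlapped, and in WY mice Tnr overlapped both Vcan and Hapln1.

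**Figure D1:**
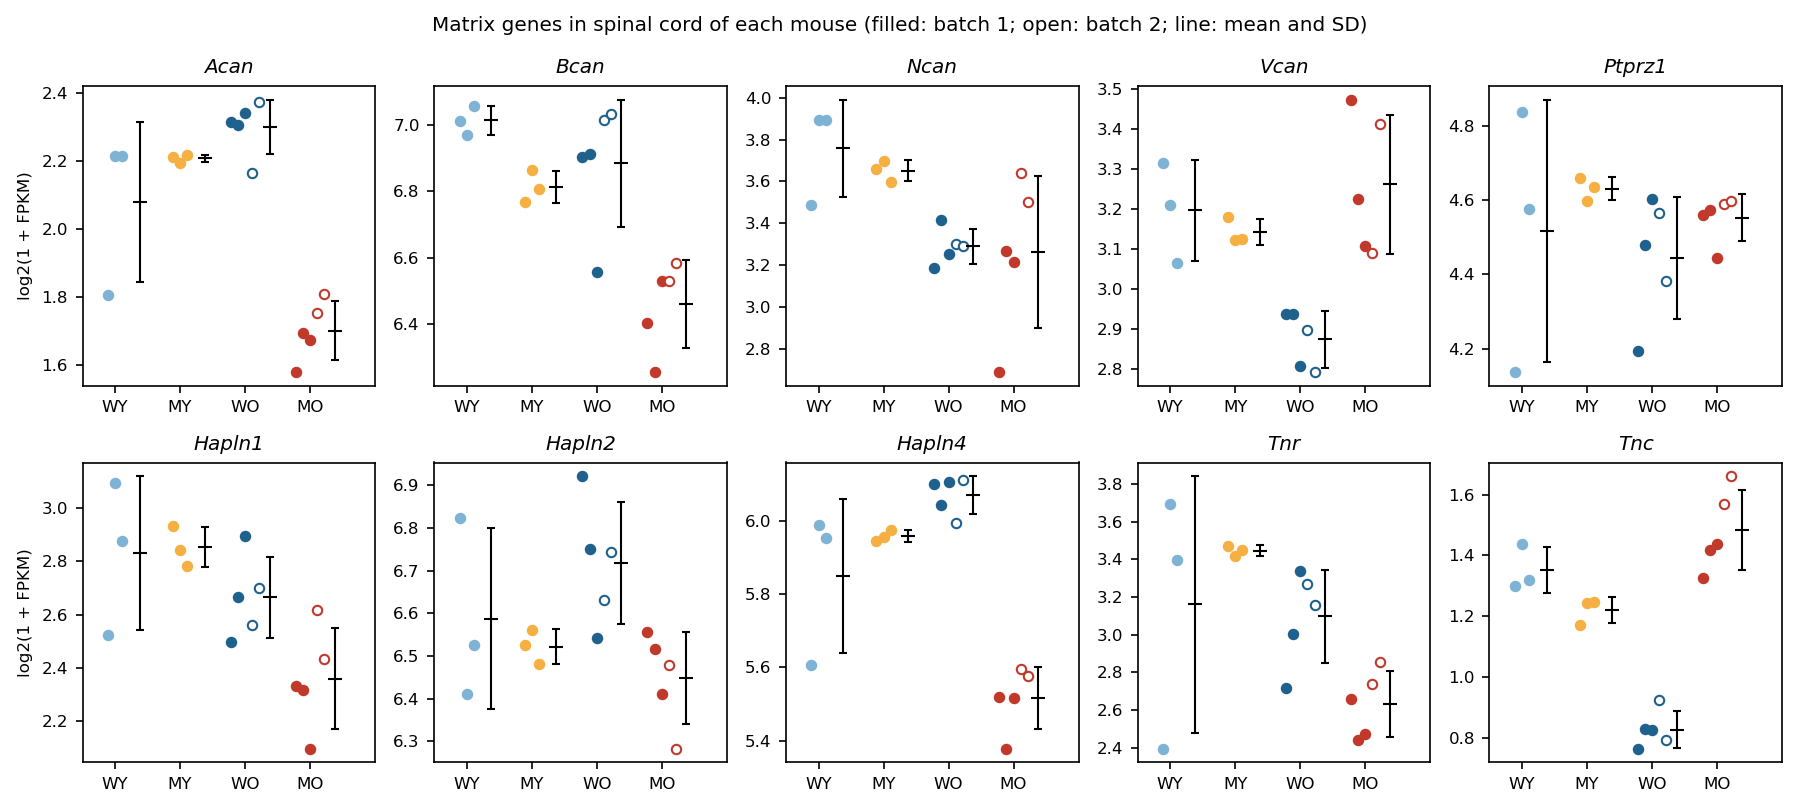
Level of each matrix gene in each mouse, as log2(1 + FPKM) on the vertical axis (ranges differ between panels and do not start at 0), by group (WY, MY, WO, MO) on the horizontal axis. Filled points are batch 1 mice, open points batch 2 mice, and the bar is the group's mean with its SD. The MO mice lie below all WO mice for Acan and Hapln4 and above all WO mice for Vcan and Tnc, and WY1 is the low young mouse for Acan, Hapln4 and Tnr.

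In WO vs. MO, 2 of the 10 genes were differentially expressed (Acan lower, Tnc higher), where 4.6% of all genes were. By the FDR alone 2 of the 10 rose (Vcan and Tnc), against 15% of all genes, and 6 fell (Acan, Bcan, Hapln1, Hapln2, Hapln4 and Tnr), against 12.9% of all genes. The 10 genes had a median log2 fold change of -0.29, where all genes had one of 0.00. The WO and MO mice did not overlap for 4 of the 10 (Acan, Vcan, Hapln4 and Tnc), as for 19.9% of all genes. In mice of batch 1 alone, 3 of the 10 passed the FDR (Acan, Hapln4 and Tnc), where 14.4% of all genes did, and these 3 were also differentially expressed, where 4.81% of all genes were.

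In MY vs. MO, 1 of the 10 was differentially expressed (Tnr, lower), where 4.9% of all genes were. Here 1 rose (Tnc), against 13.1% of all genes, and 5 fell (Acan, Bcan, Hapln1, Hapln4 and Tnr), against 12.5% of all genes. The median over the 10 was -0.37, against 0.00 over all genes. The mice of these groups did not overlap for 7 of the 10, as for 31.6% of all genes. With batch 1 mice alone 3 of the 10 were differentially expressed (Hapln1, Ncan and Tnr, all lower in MO), where 6.05% of all genes were, and 7 of the 10 passed the FDR, where 24.9% of all genes did.

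In WY vs. WO none of the 10 was differentially expressed by limma, where 0.253% of all genes were. By the FDR alone 1 fell (Tnc), against 1.12% of all genes in either direction, and at an unadjusted p under 0.05 there were 4 of the 10 and 2447 of all genes. In WY vs. MY limma called 0 of the 10, by either rule, where 0.0055% of all genes (1 gene, Prnp, named after its value was seen) were differentially expressed and 0.0055% passed the FDR. An unadjusted p under 0.05 was found there for 2 of the 10 (Bcan and Tnc, both lower in MY) and for 1301 of all genes.

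The interaction (MO - MY) - (WO - WY) tests whether the difference between old and young mice depends on genotype. By it 3 of the 10 were differentially expressed (Acan, Hapln4 and Tnc), where 5.61% of all genes were. By the FDR alone 2 were higher (Vcan and Tnc), against 10.5% of all genes, and 2 were lower (Acan and Hapln4), against 7.19%.

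**Figure D2:**
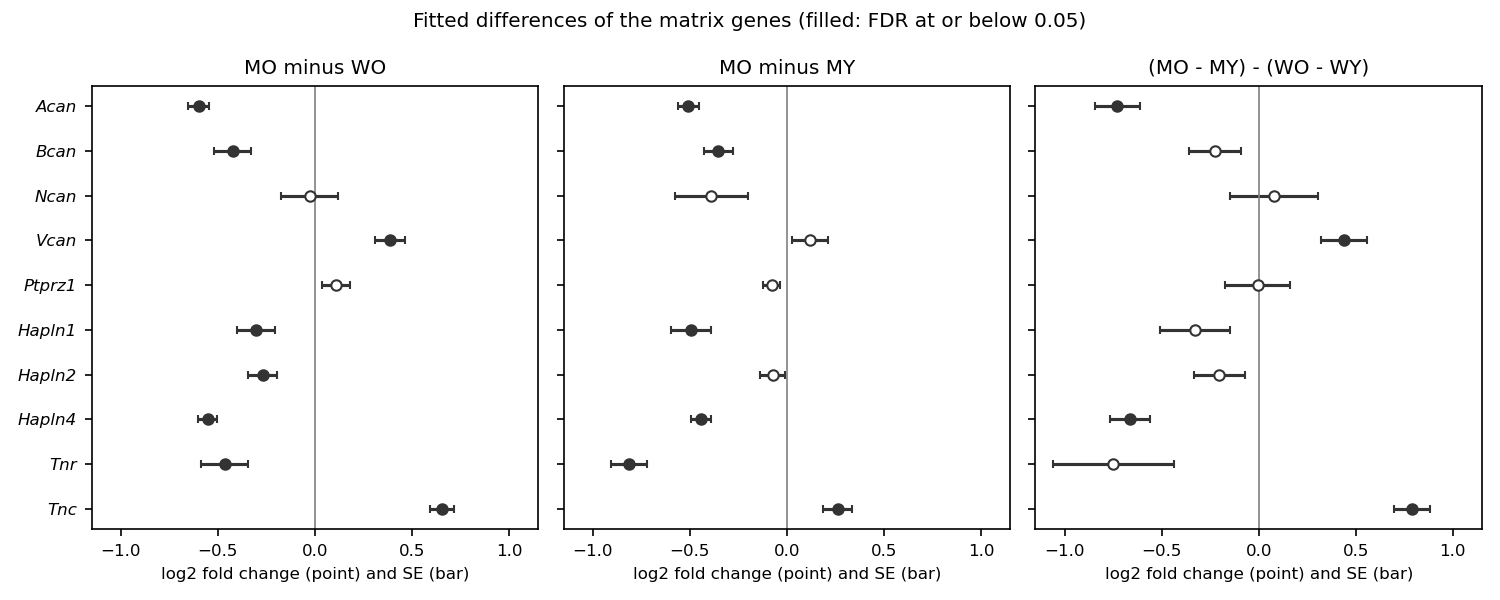
Fitted log2 fold change (point) with its standard error (bar) on the horizontal axis for each matrix gene, for MO minus WO, MO minus MY and the interaction (MO - MY) - (WO - WY). Filled points passed the FDR of 0.05, and Acan at -0.60 and Tnc at 0.66 are the outermost points of MO minus WO.

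Among the lecticans, Acan encodes aggrecan, the large lectican that is the main marker of perineuronal nets. Acan read 2.32, 2.31, 2.34, 2.16 and 2.37 in WO mice 1 to 5, and 1.58, 1.69, 1.67, 1.75 and 1.81 in MO mice 1 to 5. In the young mice it read 1.81, 2.21 and 2.21 in WY1 to WY3 and 2.21, 2.19 and 2.22 in MY1 to MY3. All MO mice lay below all WO and all MY mice, and among the controls only WY1 reached down to the MO range. Acan fell by 0.60 in WO vs. MO (SE 0.05, limma FDR = 3.18e-05), a fold of 1.515 and thus near the threshold of 1.5. The difference was -0.67 within batch 1 and -0.49 within batch 2, and -0.63 without MO5. Without MO1 it was -0.57 and without WO5 -0.58, both below the fold threshold, and the FDR call was kept in both. In MY vs. MO Acan fell by 0.51 (SE 0.05, FDR = 0.000528). In a bulk tissue, fewer cells that express a gene and less RNA of that gene per cell cannot be told apart, and this holds for every difference given here.

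The interaction of Acan was -0.73 (SE 0.12, FDR = 0.000671) with all mice and -0.59 (FDR = 0.000504) without WY1. WY vs. WO gave 0.22 for Acan (FDR = 0.382) with WY1 and 0.09 (FDR = 0.631) without it.

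Bcan encodes brevican, a lectican of the mature central nervous system that is found both in nets and around synapses. Bcan read 6.90, 6.91, 6.56, 7.02 and 7.03 in WO mice 1 to 5, and 6.40, 6.26, 6.53, 6.53 and 6.59 in MO mice 1 to 5. It read 7.01, 6.97 and 7.06 in WY1 to WY3 and 6.77, 6.86 and 6.81 in MY1 to MY3. The WO and MO mice overlapped only through WO3, which lay just below MO5, and every MY mouse lay above every MO mouse. Bcan fell by 0.42 in WO vs. MO (SE 0.09, FDR = 0.00720) and by 0.35 in MY vs. MO (SE 0.08, FDR = 0.0106). The WO vs. MO difference was -0.39 within batch 1, where it did not pass (FDR = 0.0755), -0.47 within batch 2, and -0.45 (FDR = 0.00955) without MO5. The interaction of Bcan did not pass (-0.22, FDR = 0.280), and did without WO3 (-0.30, FDR = 0.0432).

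Vcan encodes versican, a lectican that is also made by glia and by oligodendrocyte precursors. Vcan read 2.94, 2.94, 2.81, 2.90 and 2.79 in WO mice 1 to 5, and 3.47, 3.23, 3.11, 3.09 and 3.41 in MO mice 1 to 5. It read 3.31, 3.21 and 3.06 in WY1 to WY3 and 3.18, 3.12 and 3.12 in MY1 to MY3. The WO mice lay below every other mouse, whereas the MO mice spread around the levels of the young mice. Vcan rose by 0.39 in WO vs. MO (SE 0.08, FDR = 0.00396). The difference was 0.37 within batch 1, where it did not pass (FDR = 0.0547), 0.41 within batch 2 and 0.35 (FDR = 0.0101) without MO5. MY vs. MO gave 0.12 (FDR = 0.408) and WY vs. WO gave -0.32 (FDR = 0.0665), neither past the test. The interaction was 0.44 (SE 0.12, FDR = 0.0192), and it did not pass without WY1 (0.38, FDR = 0.0604) or with batch 1 mice alone (0.43, FDR = 0.0547).

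Ncan encodes neurocan, a lectican that is more abundant in the developing than in the mature nervous system. Ncan ranged from 3.49 to 3.89 in WY, 3.60 to 3.70 in MY, 3.19 to 3.41 in WO and 2.69 to 3.64 in MO mice. The spread was widest in MO, where MO1 was lowest and the batch 2 mice MO4 and MO5 were highest. Ncan did not pass in WO vs. MO (-0.03, FDR = 0.924), and the difference was -0.23 within batch 1 and 0.27 within batch 2, so the batches differed in sign. In MY vs. MO it gave -0.39 (FDR = 0.171) with all mice and -0.59 (FDR = 0.0328) with batch 1 mice alone. WY vs. WO gave -0.47 (FDR = 0.0728), and -0.60 (FDR = 0.0251) without WY1.

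In their shares of the summed lectican FPKM the MO and WO mice overlapped for Bcan and Ncan and did not for Vcan and Acan. For Acan the groups nearly touched, with the highest MO share at 2.359% and the lowest WO share at 2.365%. Its WY shares, 1.667% to 2.423%, spanned the MO range. For Bcan the overlap was small, with the highest MO share at 83.49% and the lowest WO share at 83.37%. Vcan made up 8.13% ± 1.36 (SD, n = 5) of the summed lectican FPKM in MO and 4.67% ± 0.520 (n = 5) in WO mice, and 5.38% ± 0.650 in WY and 5.82% ± 0.289 in MY mice (n = 3 each). The lowest MO share, 6.66%, lay above the highest WO share, 5.36%. Bcan held most of the sum in every group, at 81.6% in MO and 86.0% in WO mice, and at 84.2% in WY and 82.9% in MY mice. The lowest summed lectican FPKM was 94.6 in MO and 112 in WO mice, the groups overlapped in this sum, and these shares and sums were not tested.

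The link proteins stabilise the binding of lecticans to hyaluronan. Hapln4 encodes the brain link protein Bral2, which is found with brevican in nets around brainstem and cerebellar neurons. Hapln4 read 6.10, 6.04, 6.10, 5.99 and 6.11 in WO mice 1 to 5, and 5.52, 5.38, 5.52, 5.60 and 5.58 in MO mice 1 to 5. It read 5.61, 5.99 and 5.95 in WY1 to WY3 and 5.94, 5.96 and 5.97 in MY1 to MY3. All MO mice lay below all other mice, with WY1 nearest to them. Hapln4 fell by 0.55 in WO vs. MO (SE 0.05, FDR = 2.48e-05), with -0.61 within batch 1, -0.47 within batch 2 and -0.57 without MO5. It fell by 0.44 in MY vs. MO (SE 0.05, FDR = 0.000853). The interaction was -0.66 (SE 0.10, FDR = 0.000585), and -0.54 (FDR = 0.000407) without WY1, which passed the FDR but not the fold threshold.

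Hapln1 encodes the cartilage link protein Crtl1, which is needed for dense nets around neurons. Hapln1 ranged from 2.50 to 2.90 in WO, 2.10 to 2.62 in MO, 2.78 to 2.93 in MY and 2.52 to 3.09 in WY mice. MO4 lay among the WO mice, and all MO mice lay below all MY mice. Hapln1 fell by 0.31 in WO vs. MO (SE 0.10, FDR = 0.0415), a call that was lost in 11 of 18 alternatives, among them the fits without WO2, WO3, WO4, WO5, MO1, MO2, MO3 or MO5 (FDR from 0.0513 to 0.0857, and 0.0555 without MO5). The WO vs. MO difference was -0.44 within batch 1 (FDR = 0.0528) and -0.11 within batch 2. It fell by 0.49 in MY vs. MO (SE 0.10, FDR = 0.00979), and was -0.45 (FDR = 0.0502) without MY1.

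Hapln2 encodes Bral1, the link protein at nodes of Ranvier of myelinated axons. Hapln2 ranged from 6.54 to 6.92 in WO, 6.28 to 6.56 in MO, 6.48 to 6.56 in MY and 6.41 to 6.82 in WY mice. The lowest WO mouse, WO3, lay within the MO range. Hapln2 fell by 0.27 in WO vs. MO (SE 0.07, FDR = 0.0213), with -0.24 within batch 1, which did not pass (FDR = 0.175), -0.31 within batch 2, and -0.23 (FDR = 0.0462) without MO5. MY vs. MO gave -0.07 (FDR = 0.466) for Hapln2. The summed FPKM of the 3 link proteins was 136 ± 5.88 in MO and 176 ± 11.0 in WO mice (SD, n = 5 each), and 159 ± 5.36 in WY and 158 ± 2.29 in MY mice (n = 3 each), with every MO mouse (at most 142) below every other mouse.

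Of the tenascins, Tnr encodes tenascin-R, which cross-links lecticans in the net and is made by oligodendrocytes and some neurons. Tnr read 2.72, 3.00, 3.34, 3.27 and 3.16 in WO mice 1 to 5, and 2.66, 2.44, 2.47, 2.74 and 2.85 in MO mice 1 to 5. It read 2.39, 3.69 and 3.39 in WY1 to WY3 and 3.47, 3.42 and 3.45 in MY1 to MY3. All MY mice lay above all MO mice, WO1 lay within the MO range, and WY1 lay below every MO mouse. Tnr fell by 0.81 in MY vs. MO (SE 0.09, FDR = 0.000722), with -0.92 within batch 1 and -0.87 without MO5. It fell by 0.46 in WO vs. MO (SE 0.12, FDR = 0.0158), with -0.50 within batch 1, which did not pass (FDR = 0.0838), and -0.42 within batch 2. A fit of all groups together lost the WO vs. MO call of Tnr too (FDR = 0.0816). The interaction of Tnr did not pass with WY1 (-0.75, SE 0.31, FDR = 0.113) or without it (-0.37, FDR = 0.266), and passed without WY2 (-1.02, FDR = 0.0213), so it turns on single WY mice.

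Tnc encodes tenascin-C, a tenascin of development and of reactive astrocytes. Tnc read 0.76, 0.83, 0.83, 0.92 and 0.79 in WO mice 1 to 5, and 1.33, 1.42, 1.44, 1.57 and 1.66 in MO mice 1 to 5. It read 1.30, 1.44 and 1.32 in WY1 to WY3 and 1.17, 1.24 and 1.25 in MY1 to MY3. The WO mice lay below every other mouse, the MO mice lay above all WO and all MY mice, and the WY mice overlapped the MO mice. Tnc rose by 0.66 in WO vs. MO (SE 0.06, FDR = 4.54e-05), with 0.59 within batch 1, 0.76 within batch 2 and 0.61 without MO5. Under quantile normalization the difference was 0.56, which passed the FDR but not the fold threshold, and with a pseudocount of 0.1 in place of 1 it was 1.12. Tnc fell by 0.53 in WY vs. WO (SE 0.05, FDR = 0.00860), with -0.55 within batch 1 and -0.55 without WY1 (FDR = 0.0251). The fit of WY vs. WO without WY3 (FDR = 0.0608) and the replicate block (FDR = 0.0528) lost that call, and the pseudocount of 0.1 gave -0.92, past the fold threshold too.

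In MY vs. MO Tnc rose by 0.26 (SE 0.07, FDR = 0.0339), a call that was lost in 7 of 16 alternatives. Those were quantile normalization, which gave 0.13 (FDR = 0.245), the replicate block (FDR = 0.0686), and the fits without MY1 (FDR = 0.128), MY2 (FDR = 0.0856), MY3 (FDR = 0.0875), MO3 (FDR = 0.0547) or MO4 (FDR = 0.0586). Batch 1 mice alone kept it at 0.17 (FDR = 0.0486), and a pseudocount of 0.1 gave 0.40. The interaction of Tnc was 0.79 (SE 0.09, FDR = 7.76e-05), 0.81 (FDR = 0.000328) without WY1 and 1.32 with the pseudocount of 0.1.

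The balance between the tenascins followed these changes mouse by mouse. Tnr minus Tnc on the log2 scale was 1.33 at most in MO mice, and at least 1.96 in WO and 2.17 in MY mice. In WY mice it was 1.09, 2.26 and 2.08, where WY1 again read like an MO mouse. Tnc made up 25.7% ± 2.14 (SD, n = 5) of the summed tenascin FPKM in MO mice and 9.34% ± 1.29 (n = 5) in WO mice. The young mice read 11.0% to 12.4% for MY and 12.5% to 25.6% for WY, with WY1 the highest. These shares were not tested.

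Ptprz1 encodes a receptor tyrosine phosphatase of glia whose secreted form, phosphacan, binds tenascin-R in nets. Ptprz1 ranged from 4.14 to 4.84 in WY, 4.60 to 4.66 in MY, 4.19 to 4.60 in WO and 4.44 to 4.60 in MO mice. Its WO and MO mice overlapped, and WY1 and WO1 were its lowest mice. It passed no comparison, with 0.11 in WO vs. MO (SE 0.07, FDR = 0.318), 0.10 and 0.12 within the batches, and -0.08 in MY vs. MO (SE 0.05, FDR = 0.259).

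For each matrix gene differentially expressed between pairs of groups, the genes with the most similar pattern over the 16 mice were named by Pearson's r among 13530 genes, as a description without a test. Acan was nearest to App (r = 0.981), Hapln4 (r = 0.979) and Clstn2 (r = 0.973). After the group means were taken off, these r were 0.906, 0.856 and 0.826. Tnr was nearest to Cep170 (r = 0.980), Atrn (r = 0.978) and Tmem178b (r = 0.976), with 0.959, 0.977 and 0.965 after the group means were taken off. Tnc was nearest to Lrrc42 (r = 0.940), the water channel gene Aqp4 (r = 0.936) and Epb4.1l2 (r = 0.935), with 0.675, 0.491 and 0.755 after the group means were taken off. Without WY1, over 15 mice and with the group means left in, r was at least 0.972 for the Acan genes, 0.976 for the Tnr genes and 0.936 for the Tnc genes. The r after the group means were taken off was not examined without WY1, so how far it rests on that mouse is not known. The 16 mice share the groups and batches, and WY1 was the lowest young mouse for Acan and Tnr.

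Other genes of net assembly and turnover were examined as lists. Beside the counts below, 15% of all genes rose and 12.9% fell in WO vs. MO, and 13.1% rose and 12.5% fell in MY vs. MO, so counts near these shares say nothing particular about a list. Of 9 lysosomal enzymes that break down chondroitin and dermatan sulfate, 7 rose and 1 fell in WO vs. MO (median 0.71, against 0.00 over all genes), and 6 rose and 1 fell in MY vs. MO (median 0.74). Gusb, the beta-glucuronidase gene, rose by 1.46 in WO vs. MO and by 1.31 in MY vs. MO, Hexa in the same order by 1.09 and by 1.09, Galns by 0.87 and by 0.88, and Glb1 by 0.71 and by 0.61. These enzymes also act on other substrates in the lysosome.

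Of 15 proteases that cleave lecticans and their tissue inhibitors, 6 rose and 2 fell in WO vs. MO, and 5 rose and 2 fell in MY vs. MO. Timp1, an inhibitor of metalloproteinases, rose by 3.67 and by 3.18 in these comparisons. Mmp14, a membrane-bound metalloproteinase, rose by 0.63 and by 0.71, and the inhibitor Timp4 by 0.61 and by 0.63. Adamts4, an aggrecanase that cleaves aggrecan and brevican, fell by 0.51 and by 0.72, and Mmp9, a gelatinase, fell by 0.70 and by 0.71. The related proteases Adamts1 and Adamts5, named after their values were seen, moved the other way, with Adamts1 up by 0.49 and by 0.44 and Adamts5 up by 0.22 in WO vs. MO and not past the test in MY vs. MO (0.05). Timp2, the most abundant of the list, rose by 0.22 in WO vs. MO and did not pass in MY vs. MO (0.11).

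Of 14 genes of hyaluronan synthesis, binding and degradation, 3 rose and 2 fell in both WO vs. MO and MY vs. MO. Cd44, a hyaluronan receptor, rose by 1.64 in WO vs. MO and by 1.19 in MY vs. MO, and fell by 0.67 in WY vs. WO. The scavenger receptor gene Stab1 rose by 0.57 and by 0.66, and Tnfaip6, the most abundant, did not pass (-0.15 and -0.27). Of 12 enzymes that build chondroitin sulfate chains, 1 rose and 2 fell in WO vs. MO and 1 rose and 3 fell in MY vs. MO, and their most abundant gene, B3gat3, did not pass (-0.04 and 0.08). Of 9 measured sulfotransferases and epimerases, 3 rose and none fell in WO vs. MO, and 2 rose and 2 fell in MY vs. MO, with Chst12 the most abundant (-0.17 and 0.01, neither past the test).

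Of 18 receptors of chondroitin sulfate proteoglycans and partners of Ptprz1 and the tenascins, 3 rose and 3 fell in WO vs. MO and 2 rose and 7 fell in MY vs. MO. Ptn, the gene of pleiotrophin, a ligand of Ptprz1, fell by 0.59 in MY vs. MO and by 0.44 in WY vs. WO. It did not pass in WO vs. MO (-0.34, FDR = 0.114). Cntn1, the most abundant of that list, did not pass (0.06 in WO vs. MO and -0.12 in MY vs. MO). Of 12 other measured tenascins, proteoglycans and net-associated proteins, 3 rose and 2 fell in WO vs. MO and 2 rose and 3 fell in MY vs. MO. Smoc1 rose by 0.55 and by 0.63, and Sparcl1, the most abundant, did not pass (-0.12 and -0.11). In WY vs. WO these 7 lists held 3 genes that passed, each lower in WO, where 1.12% of all genes passed in either direction. In WY vs. MY none passed, where 0.0055% of all genes did.

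Markers of cell types were set beside these values, and their part in the results was not tested. Of 8 microglia markers 7 rose and none fell in WO vs. MO, and their summed FPKM was 198, 246, 295, 182 and 203 in MO1 to MO5 and at most 88.4 in WO mice, with Csf1r the most abundant. Of 8 astrocyte markers 6 rose and none fell, with sums of 4077 to 4988 in MO and 2523 to 2759 in WO mice, led by Gfap. In WY vs. WO 2 of the 8 astrocyte markers fell, Gfap by 0.54 and Aqp4 by 0.65, as Tnc did, and the other 6 did not pass. Of all genes 1.12% passed in that comparison, in either direction. Of 5 motor neuron markers 4 fell in WO vs. MO, with sums of 53.3, 53.7, 42.5, 52.5 and 48.8 in MO1 to MO5 and 69.8 to 81.5 in WO mice. Their most abundant gene, Slc5a7, fell by 0.49 and Chat by 0.67. Of 6 general neuron markers 4 fell, with sums of 1518 to 1730 in MO and 1935 to 2158 in WO mice, led by Snap25 (which fell by 0.41). Of 7 markers of inhibitory and fast-spiking neurons 4 fell, with sums of 375 to 435 in MO and 506 to 557 in WO mice. Pvalb, the most abundant of these, did not pass (-0.05), whereas Slc6a5 fell by 0.78. WY1 was also the low young mouse for the motor neuron sum (43.9, against 63.7 and 65.6 in WY2 and WY3) and the inhibitory and fast-spiking neuron sum (412, against 509 and 528).

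Of 8 oligodendrocyte markers 1 rose and 2 fell in WO vs. MO, 4 fell in MY vs. MO and 5 fell in WY vs. WO. Beside this and the other marker counts in WY vs. WO, 1.12% of all genes passed there in either direction. Their sum ranged from 7223 to 22345 in MO and from 5357 to 23995 in WO mice, and it followed its most abundant gene, Mbp. Mbp read 5.36 in WO4, where the other 15 mice read 12.2 to 14.2, so that the sum of WO4 rests on a value that stands apart. The other batch 2 mice read 14.22 (WO5), 14.11 (MO4) and 14.14 (MO5), above the 12.16 to 13.23 of every batch 1 mouse. Their sums were 23995, 22345 and 21746, against 7223 to 10294 in the old mice of batch 1. Of 6 oligodendrocyte precursor markers none passed in WO vs. MO, 2 fell in MY vs. MO and 3 fell in WY vs. WO, with sums of 54.3 to 79.3 in MO and 55.6 to 62.4 in WO mice and Lhfpl3 the most abundant. Of 5 endothelial markers 3 fell in WO vs. MO, with sums of 66.4 to 92.4 in MO and 75.5 to 133 in WO mice and Ly6c1 the most abundant.

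Markers of tissue next to the cord and of blood were examined too. Of 5 meningeal fibroblast markers none passed in WO vs. MO (sums of 13.6 to 19.3 in the old mice, led by Dcn), and of 4 Schwann cell markers none did (sums of 1.29 to 2.50, led by Ncmap). Of 3 measured markers of sensory ganglion neurons, Avil rose by 0.36 (sums of 0.140 to 0.383 in WO and 0.430 to 0.736 in MO mice), and Scn10a and Trpv1 had mean levels of at most 0.01 and 0.07 in each group. Of 4 skeletal muscle markers 1 fell, the most abundant gene Acta1 (by 0.25), with sums of 0.552 to 1.09 in the old mice and Myh4 at a mean of at most 0.02. Of 3 measured red blood cell markers none passed, with sums of 11.7 to 64.4 in MO and 61.1 to 96.8 in WO mice, nearly all of it Hba-a1, and Hbb-bs was listed near 0 in every mouse. None of the 5 sex-linked genes passed.

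The mean marker level of each mouse also went into two-sided exact permutation tests, with p adjusted over 52 of them. The smallest p that 5 against 5 mice allow, 0.00794, was reached in WO vs. MO for microglia (difference 1.33), astrocytes (0.51), motor neurons (-0.46), general neurons (-0.20), inhibitory and fast-spiking neurons (-0.38) and sensory ganglion neurons (0.12), each with an adjusted p of 0.0688. For 3 against 5 mice the smallest p is 0.0357 and for 3 against 3 mice 0.1, so the other comparisons had little or no room to pass an adjusted p of 0.05.

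In the mouse genome (GRCm38, GENCODE M21) each lectican gene lies beside a link protein gene, with 0 protein-coding genes between them. Acan (chr7:79053483-79115099, + strand) ends 2 bases from Hapln3 (chr7:79115102-79131018, - strand). Hapln4 (chr8:70083457-70090862, + strand) and Ncan (chr8:70093085-70120873, - strand) point toward each other across 2222 bases. Hapln1 (chr13:89539796-89611652, + strand) and Vcan (chr13:89655312-89742509, - strand) do so across 43659 bases. Bcan (chr3:87987531-88000230) and Hapln2 (chr3:88021750-88027583) lie 21519 bases apart, both on the - strand. Tnr (chr1:159523769-159931729, + strand), Tnc (chr4:63959785-64047015, - strand) and Ptprz1 (chr6:22875502-23052916, + strand) lie elsewhere.

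Neighbours are set side by side here for WO vs. MO. Acan fell by 0.60, whereas Hapln3, named after its values were seen, did not pass (-0.10, FDR = 0.342). Hapln4 fell by 0.55 and Ncan did not pass (-0.03). Hapln1 fell by 0.31, a call lost in 11 of 18 alternatives, and Vcan rose by 0.39, and with batch 1 mice alone neither passed (FDR = 0.0528 and 0.0547). Bcan fell by 0.42 and Hapln2 by 0.27. Differences between neighbours were not tested. GENCODE places 8 further annotated genes over 5 of the 10 matrix genes, of which 0 are in the table. Whether the authors' counting used strand is not given in the sources used here, so reads of such overlapping genes cannot be told apart from those of the matrix genes.

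**Figure D3:**
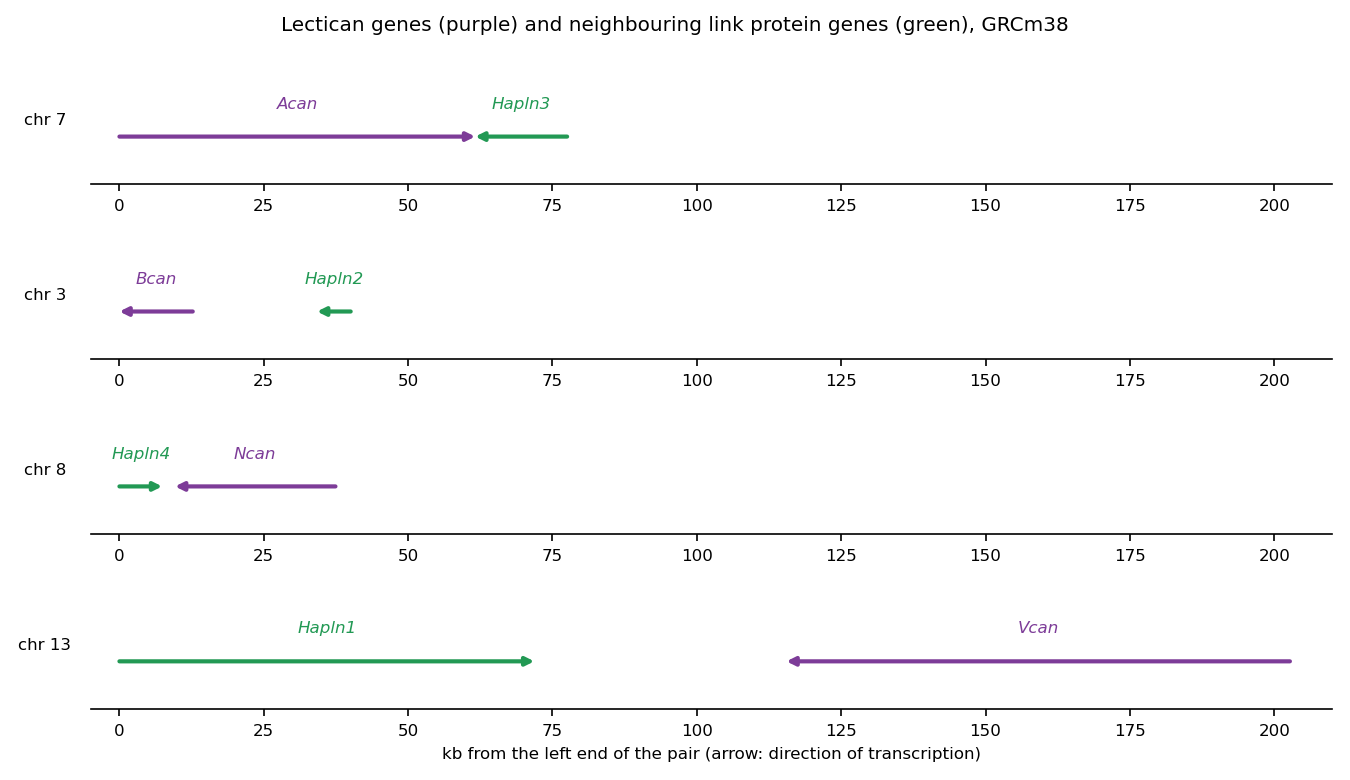
Map of each lectican gene (purple) with its neighbouring link protein gene (green) on chromosomes 7, 3, 8 and 13 of GRCm38, in kilobases from the left end of the pair, drawn to scale. Arrows give the direction of transcription, and the gaps are 2, 21519, 2222 and 43659 bases from top to bottom.

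RefSeq promoters (GRCm38.p6) were matched by symbol for 9 of the 10 matrix genes, with Hapln4 unmatched. The 250 bases before the start are shown for Acan, Tnr and Tnc, since these were the genes differentially expressed between pairs of groups. They were searched on both strands for the GC box (GGGCGG), the CCAAT box (CCAAT), the TATA box (TATAAA), the AP-1 site (TGACTCA) and the E-box (CACGTG), which 32.7%, 33.8%, 12.4%, 4.46% and 6.02% of 32851 promoters of that length hold. Of the 9 matched genes, 6 hold a GC box, 4 a CCAAT box, 2 a TATA box and 0 an AP-1 site or E-box. The Acan window (chr7:79052976-79053225, + strand) is 74.4% G and C, against a median of 52.4% over all promoters, and holds the GC box as CCGCCC at bases 207, 211 (overlapping) and 244 from its 5′ end and the CCAAT box as ATTGG at 141. The Tnr window (chr1:159523519-159523768, + strand) is 46.8% G and C and holds none of these motifs. The Tnc window (chr4:64047016-64047265, - strand, the farther upstream of 2 RefSeq starts) is 44.8% G and C and holds GGGCGG at 84 and TATAAA at 125. Capitals mark the motifs, and a match is a description of the letters only.
Acan: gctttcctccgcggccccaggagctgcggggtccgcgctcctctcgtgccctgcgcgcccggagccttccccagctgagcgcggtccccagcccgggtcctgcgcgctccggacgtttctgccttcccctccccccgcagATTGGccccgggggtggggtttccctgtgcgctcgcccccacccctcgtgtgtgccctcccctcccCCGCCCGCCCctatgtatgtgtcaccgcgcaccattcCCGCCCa
Tnr: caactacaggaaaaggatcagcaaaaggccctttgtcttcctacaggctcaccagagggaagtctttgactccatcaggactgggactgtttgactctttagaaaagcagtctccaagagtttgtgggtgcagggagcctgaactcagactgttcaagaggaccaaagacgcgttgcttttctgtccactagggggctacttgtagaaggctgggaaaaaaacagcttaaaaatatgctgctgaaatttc
Tnc: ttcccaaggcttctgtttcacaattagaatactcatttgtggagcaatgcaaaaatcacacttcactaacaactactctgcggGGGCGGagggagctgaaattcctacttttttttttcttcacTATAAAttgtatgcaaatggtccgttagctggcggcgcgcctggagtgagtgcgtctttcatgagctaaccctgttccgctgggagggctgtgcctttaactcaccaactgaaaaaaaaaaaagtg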

How the data were processed

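The log2 values used here, log2(1 + FPKM) per gene and mouse, were made and deposited by the authors. Their sources name Trimmomatic for read cleaning, TopHat for alignment to mm10, Cufflinks for FPKM and ComBat for the adjustment of 2 library batches. The versions of these tools and the covariates of ComBat are not given in the sources used here. Of the deposited values 915 were below 0 and 0 were exactly 0, and no column of the table was left unused. The depth behind a gene is unknown, so precision rests on the spread between mice.

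Groups, batches and ages were taken from the labels. Each pair of groups was fitted separately with limma 3.58.1 (lmFit and eBayes, two-sided) in R 4.3.3 over 18167 genes, with the log2 fold change as second minus first group and Benjamini-Hochberg adjustment over all genes. The interaction was fitted on all 16 mice. The procedure was tested on simulated data. Shares, sums, correlations and exact permutation tests were computed in Python 3.11.15 with SciPy 1.17.1, NumPy 2.4.6 and pandas 2.3.3, and plots were drawn with matplotlib 3.10.9.

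The matrix genes and the lists (7 of related genes, 13 of cell markers and 1 of sex-linked genes) were chosen with earlier results of these data known. The genes named from each list were taken from those differentially expressed in any pairwise comparison, at most 6 by size, and the most abundant gene, and not all of these are named. For each matrix gene differentially expressed between pairs of groups, the 3 genes with the highest r were named among genes with a mean log2 level of at least 1.

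Alternatives were batch 1 mice only, batch as a term, genes with a mean of at least 1, a single fit of all groups, a pseudocount of 0.1, quantile normalization, an intensity trend, a block for the replicate number, and omission of 1 mouse at a time. For marker levels they were the median over the list and batch 1 mice only. The r without WY1 was added after the data were seen.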

Additional observations from a re-analysis of the deposited data

Results flagged for a closer look

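In a group of 5 mice, 1 mouse lay far from the others, beyond the 95% critical value of Dixon's ratio of gap to range, for Bcan and for Ptprz1. Bcan read 6.56 in WO3, below the other WO mice. Ptprz1 read 4.44 in MO3, below the other MO mice. There were 20 groups examined in this way, and chance alone gives such a mouse in about 1 of 20 groups.

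The limma interaction (MO - MY) - (WO - WY) passed the FDR for 4 of the 10 matrix genes, 2 of them higher (10.5% of all genes were) and 2 lower (7.19% of all genes were). For Vcan it did not pass without WY1 (FDR = 0.0604) or with batch 1 mice alone (FDR = 0.0547). It was -0.73 for Acan and -0.66 for Hapln4, which were lower in MO than in MY mice. It was 0.44 for Vcan and 0.79 for Tnc, of which Tnc fell in WY vs. WO and rose in MY vs. MO. The Tnc call was lost in 2 of 16 alternatives in WY vs. WO and in 7 of 16 in MY vs. MO (0.13, FDR = 0.245 under quantile normalization).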

How the results depend on the processing

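Of 19 differences of matrix genes past the FDR, 10 kept direction and call in every alternative. Over 348 refits 320 kept both, 28 kept the direction but lost the call and 0 reversed. A mean of at least 1, a single fit of all groups and an intensity trend leave the fold change as it was, so they could not reverse it. Batch as a term leaves it too in WO vs. MO and the interaction. In MY vs. MO and WY vs. WO it repeats the fold change of batch 1 mice alone. The refits are thus not independent checks, and the 19 were picked as passing in these same data. Batch 1 mice alone gave 3 matrix genes past the FDR in WO vs. MO in place of 8, 3 differentially expressed in MY vs. MO in place of 1, 73 differentially expressed genes in WY vs. WO in place of 46, and 0 marker comparisons at an exact p of 0.05 in place of 19, since 3 against 3 mice cannot go below 0.1. With batch as a term there were 3 matrix genes in MY vs. MO and 80 genes in WY vs. WO. Quantile normalization gave 1 differentially expressed matrix gene in WO vs. MO in place of 2, and 2 in MY vs. MO. A pseudocount of 0.1 gave 1529 differentially expressed genes in WO vs. MO in place of 836, 1483 in MY vs. MO in place of 890, 1548 in the interaction in place of 1020, 2 matrix genes in MY vs. MO and 1 in WY vs. WO in place of 0. In WY vs. MY the 1 differentially expressed gene became 2 with a mean of at least 1, 4 with all 4 groups in 1 fit and 2 with an intensity trend. With 1 mouse left out in turn, differentially expressed matrix genes numbered 1 to 2 in WO vs. MO, 0 to 1 in WY vs. WO and 2 to 4 in the interaction; those past the FDR numbered 4 to 6 in MY vs. MO, 0 to 2 in WY vs. WO and 3 to 5 in the interaction. All differentially expressed genes then numbered 7 to 64 in WY vs. WO and 1 to 5 in WY vs. MY. Here and below, some counts of matrix genes stand without a count over all genes for the same comparison and setting. Such counts show only how calls shift, and say nothing particular about the matrix genes. Unless the construction of the alternative shows it, the cause was not tested. No scaling moved the median of all genes by over 0.1.

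The replicate block gave 840 differentially expressed genes in WO vs. MO, 1108 in MY vs. MO, 63 in WY vs. WO, 1 in WY vs. MY and 1008 in the interaction, with 3 matrix genes in MY vs. MO and 0 past the FDR in WY vs. WO in place of 1. The deviations of same-numbered mice correlated at -0.21 to 0.09 in WO vs. MO, 0.09 to 0.18 in MY vs. MO, -0.13 to 0.38 in WY vs. WO and -0.20 to -0.02 in WY vs. MY, and each mouse fitted its own number best in 1 of 5, 3 of 3, 2 of 3 and 0 of 3 pairs.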
